A study of Arabidopsis thaliana with 44 samples.

Results

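Unirradiated Arabidopsis thaliana seedlings sampled on 2 successive days are compared here, 6 days old (day 2) against 5 days old (day 1). The comparison holds 8 of the 44 arrays of a radiation study, chosen from the sample titles alone: 2 replicates each of WT on day 1, WT on day 2, atm-1 on day 1 and atm-1 on day 2. WT is the wild type, and atm-1 is a mutant of ATM, the kinase that signals DNA double-strand breaks. All 4 groups were labelled as unirradiated controls, had grown on vertical plates at 21 °C under a 16 h day, and gave RNA from 30 to 40 pooled plants per array. The sampling time was 10:45 am for day 1 and 9:15 am for day 2, so age, calendar day and a clock time 1.5 h earlier changed together and cannot be told apart. The labels do not say that replicates came from separate plantings, so the spread between them may be technical. The p-values rest on that spread pooled over the groups of all 44 arrays, irradiated ones included. In pooled seedlings fewer cells of a type and less RNA per cell cannot be told apart.

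Young seedlings leave the reserves of the seed behind within days and live on their own photosynthesis. In Arabidopsis many transcripts also follow the time of day, through the circadian clock, light, and the sugar and starch status of the plant. When sugar runs short, seedlings recycle their own material through autophagy, in which ATG8 proteins coat the membranes that enclose cell contents, and burn branched-chain amino acids in mitochondria. Growth when resources allow rests on ribosome production, plastid gene expression, DNA replication and loosening of cell walls.

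Levels are RMA log2 values, on which a step of 1 is 2-fold. A change is day 2 minus day 1, averaged over the 2 genotypes with equal weight, and a gene is called to have risen or fallen at a Benjamini-Hochberg adjusted p under 0.05 in limma. The 8 arrays had medians of 5.91 to 5.95, and replicates of a group correlated at 0.992 to 0.997. Rubisco activase (RCA), a green tissue transcript, lay between 14.06 and 14.15 on all 8 arrays, and the root transcript PYK10 between 12.43 and 12.83. The seed oil body gene OLEO3 lay between 3.80 and 4.27. No single-gene probe set represented ATM, so the genotype label was not checked on that gene.

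Over 13356 genes, the deviations of the control groups from each gene's mean were compared with those of every other group. Apart from each other, the day 2 controls of both genotypes were most like an irradiated group labelled 1:09 pm. That group differed from them in both radiation and clock time. The mean of WT on day 2 correlated at 0.70 with atm-1 at 24 h after HZE (30 Gy of high-energy iron ions, sampled at 1:09 pm on day 2) and at 0.57 with WT at that time. With the gamma groups at 24 h (100 Gy, sampled at 8:40 am on day 2) it correlated at -0.26 in both genotypes. The mean of atm-1 on day 2 correlated at 0.62 with atm-1 and at 0.30 with WT at 24 h after HZE. That last value was below its 0.35 with atm-1 at 1.5 h after HZE, sampled at 2:39 pm on day 1. With the gamma groups at 24 h it correlated at -0.11 in atm-1 and -0.33 in WT. Array by array, only the means of the HZE and gamma groups at 24 h were compared. The 4 day 2 arrays correlated at 0.41 to 0.71 with that of HZE and at -0.27 to -0.21 with that of gamma. No day 2 array is left once such arrays are set aside. WT on day 1 correlated at 0.64 with atm-1 and 0.35 with WT at 1.5 h after gamma, sampled at 10:10 am on day 1. With the gamma groups at 24 h it correlated at 0.32 in atm-1 and 0.28 in WT. For atm-1 on day 1 the values were 0.59 with atm-1 and 0.27 with WT at 1.5 h after gamma. At 24 h after gamma they were 0.36 with atm-1 and 0.23 with WT. The 4 day 1 arrays correlated at 0.28 to 0.32 with the mean of the gamma groups at 24 h. With that of the HZE groups they correlated at -0.13 to -0.09. These correlations are across genes, which share arrays and are no replicates, and are given as descriptions. Which arrays were labelled or hybridised together is not given in the sources used here, and the part of clock time, handling or processing in the day change was not tested.

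Across the 13356 genes, 3668 changed between the days (27.5%): 1963 rose (14.7%) and 1705 fell (12.8%). Most changes were small. Of the called genes 75.7% changed by under 1.5-fold, while 57 rose and 140 fell by at least 2-fold. For 2786 called genes (20.9%) no day 2 array overlapped any day 1 array, 1453 of them higher and 1333 lower. The median change over all genes was 0.016. Leaving out any 1 of the 8 arrays left between 3126 and 3272 calls.

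The largest rise was in AT2G15960, a gene with no name in the annotation used. Its day 1 levels were 6.96 and 6.95 in WT and 7.45 and 7.50 in atm-1, and its day 2 levels 9.65 and 9.69 in WT and 9.95 and 9.87 in atm-1. The days were thus separated by more than 2 log2 units in either genotype, a rise of 2.58 (SE 0.18, adjusted p = 4.3e-12). AT3G62550 read 5.14 and 5.75 in WT and 5.83 and 5.90 in atm-1 on day 1. On day 2 it read 7.96 and 7.75 in WT and 8.65 and 8.53 in atm-1, a rise of 2.57 (SE 0.13, adjusted p = 4.6e-15). Both genes were also a little higher in atm-1 than in WT on both days.

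CCL (CCR-like), known for daily rhythms in the abundance and stability of its transcript, rose by 2.23 (SE 0.09, adjusted p = 2.6e-17), or 4.69-fold. Its day 1 arrays read 7.36 and 7.60 in WT and 7.52 and 7.49 in atm-1. Its day 2 arrays read 9.36 and 9.50 in WT and 10.05 and 9.97 in atm-1. The 4 day 1 arrays lay close together and all 4 day 2 arrays far above them. GI (GIGANTEA), a clock component that peaks late in the day, rose by only 0.24 (SE 0.09, adjusted p = 0.039), from between 6.65 and 6.84 to between 6.89 and 7.05. Without any 1 of the 8 arrays the GI call was lost. COR27, another clock-regulated gene, had a change of 0.005. GI was the only clock component measured, while LHY, CCA1, PRR7, PRR9, TOC1, ELF4 and the others listed were not.

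Among the other genes that rose most, EXPA16, an expansin that loosens cell walls, went from 4.65 and 4.22 in WT and 4.95 and 4.95 in atm-1 to 6.41 and 6.41 in WT and 6.88 and 6.23 in atm-1. Its rise was 1.79 (SE 0.14, adjusted p = 1.8e-11). HIS1-3, a linker histone variant known to respond to drought and low light, rose by 1.48 (SE 0.17), from at most 4.59 on day 1 to at least 5.73 on day 2. COR15B, a cold-regulated chloroplast protein, rose by 1.31 (SE 0.14), from at most 5.49 to at least 6.38. Of the 15 genes that rose most with no overlap between the days, 11 carry no name in the annotation used, with rises between 1.30 and 2.58.

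The largest fall was in AT3G44970, also unnamed. It read 8.40 and 8.38 in WT and 7.98 and 8.30 in atm-1 on day 1, against 4.68 and 4.72 in WT and 5.54 and 5.11 in atm-1 on day 2. It was 9.55-fold lower on day 2, a change of -3.26 (SE 0.15, adjusted p = 7.3e-16).

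CHIL, a chalcone isomerase-like protein that promotes the first steps of flavonoid synthesis, read 8.59 and 8.48 in WT and 8.56 and 8.63 in atm-1 on day 1. On day 2 it read 6.24 and 6.62 in WT and 6.10 and 6.29 in atm-1, so it fell by 2.25 (SE 0.17, adjusted p = 1.9e-11). ATSPS4F, a sucrose-phosphate synthase of the sucrose pathway, read 9.98 and 10.17 in WT and 9.63 and 9.94 in atm-1 on day 1. On day 2 it read 7.76 and 7.86 in WT and 8.18 and 7.93 in atm-1, and it fell by 2.00 (SE 0.12, adjusted p = 7.1e-14). Both genotypes went down together in both genes. Cpn60beta2, a subunit of the chaperonin that folds chloroplast proteins, fell by 1.56 (SE 0.12) from a high level, at least 11.11 on day 1 and at most 9.81 on day 2. BGLU40, a beta-glucosidase, fell by 1.63 (SE 0.17), with 1 atm-1 day 2 array at 6.29 and the other 3 near 5. AT1G73600 fell by 2.15 (SE 0.24), from between 6.51 and 7.82 to between 4.37 and 5.67.

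**Figure D1:**
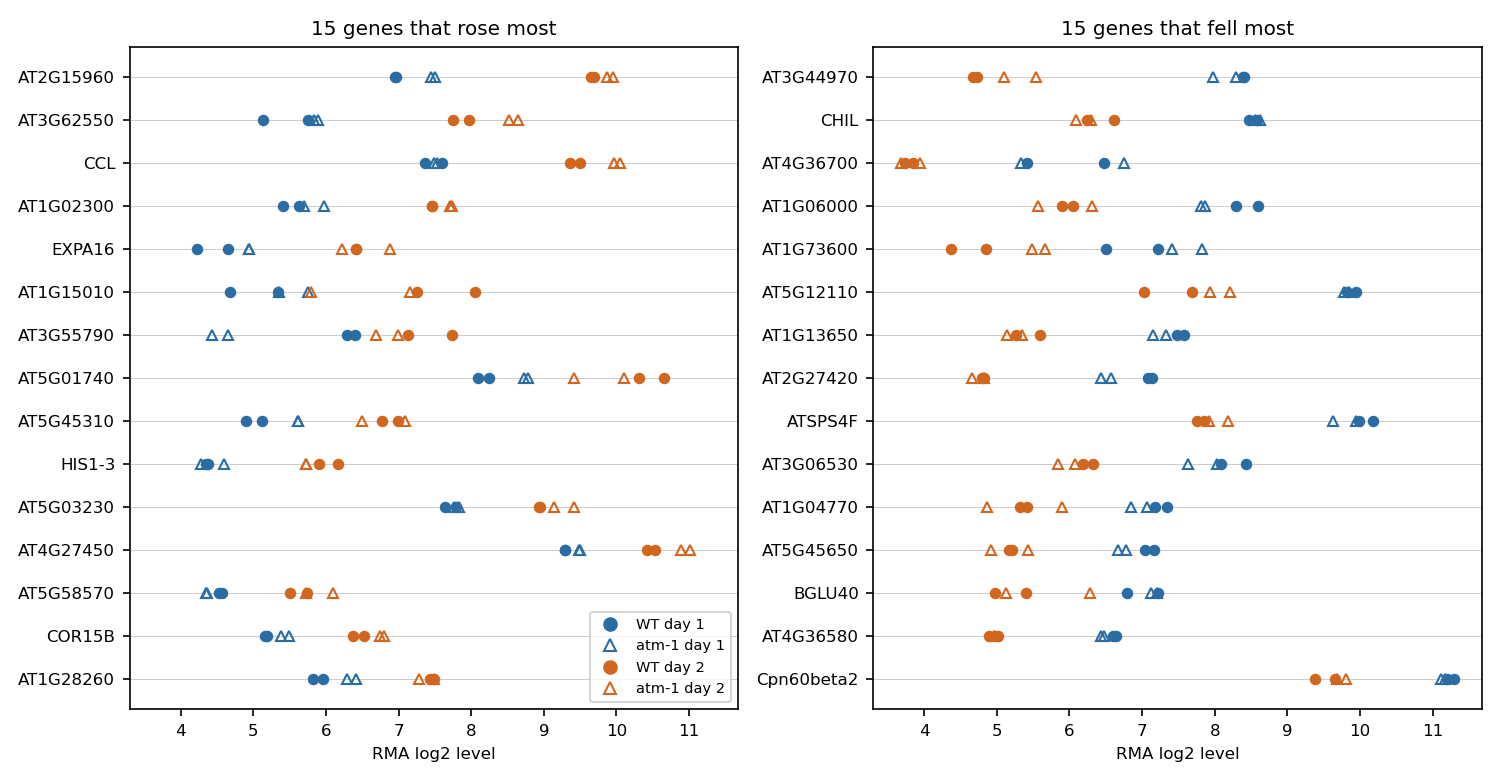
RMA log2 level (horizontal axis) of the 15 genes that rose most and the 15 that fell most with no overlap between the days, 1 point per array: filled circles WT, open triangles atm-1, blue day 1, orange day 2. Every gene shows a gap between its 4 day 1 and 4 day 2 arrays, narrowest for AT1G15010 and widest for AT3G44970, which read 7.98 or more on day 1 and 5.54 or less on day 2.

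Of 10 autophagy genes measured, 9 rose and 0 fell, with a median change of 0.55 against 0.016 for all genes, and all 9 separated the days without overlap. Among all genes 14.7% rose, 12.8% fell and 20.9% were called without overlap. These shares are the background for this and every later list. The list holds ATG3, the enzyme that joins ATG8 to lipid, and 9 ATG8 copies. ATG8F rose most, from 9.58 and 9.45 in WT and 9.43 and 9.49 in atm-1 to 10.52 and 10.36 in WT and 10.69 and 10.36 in atm-1. That is a rise of 0.99 (SE 0.09, adjusted p = 9.0e-10), or 1.99-fold. ATG8C rose by 0.79 (SE 0.07), ATG8D by 0.68 (SE 0.11) and APG8H by 0.60 (SE 0.07). ATG8H, at 0.20 (SE 0.12, adjusted p = 0.24), did not pass the test. ATG8 copies are similar in sequence, and how far their probes read each other was not tested.

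The branched-chain amino acid list had 5 of 6 genes higher and 0 lower, with a median of 0.50. MCCA and MCCB are the subunits of the carboxylase that breaks down leucine. MCCA read 8.75 and 8.75 in WT and 9.03 and 9.00 in atm-1 on day 1, and 9.67 and 9.49 in WT and 9.93 and 9.78 in atm-1 on day 2. It rose by 0.84 (SE 0.19, adjusted p = 0.00085), and MCCB rose by 0.70 (SE 0.12). IVD, which acts one step before that carboxylase, rose by 0.55 (SE 0.13), and ETFQO, which passes the electrons on to the respiratory chain, by 0.45 (SE 0.11), with the days overlapping for ETFQO. D2HGDH rose by 0.31 (SE 0.10, adjusted p = 0.021), a call held in 10 of 16 alternatives, and ALDH6B2 of valine breakdown had a change of 0.23 (adjusted p = 0.11). AKINBETA1, a regulatory subunit of the SnRK1 energy sensor kinase known to rise in darkness, rose by 0.90 (SE 0.14, adjusted p = 7.8e-06), from at most 9.54 to at least 10.17. PPDK, the other gene of the sugar starvation list, had a change of 0.37 that did not pass.

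Of 3 starch genes 0 rose and 1 fell. The fall was in AT5G26570 (PWD, which phosphorylates starch ahead of its breakdown), by 0.47 (SE 0.11). APL3, of starch synthesis, had a change of -0.42 (adjusted p = 0.060), and DPE1 of -0.027.

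Nuclear genes of the photosynthetic apparatus rose by small steps or had small changes. Of 7 photosystem and Calvin cycle genes 4 rose and 0 fell, with a median of 0.19. PSBW, a photosystem II subunit, rose by 0.38 (SE 0.07), from at most 12.12 to at least 12.36. RCA had a change of 0.0019 (SE 0.05). Of 3 antenna genes, LHCB4.2 rose by 0.37 (SE 0.08) and LHCB4.1 by 0.27 (SE 0.07), while LHCB4.3 had a change of -0.0065. Both chlorophyll synthesis genes rose. PORB, the light-dependent protochlorophyllide reductase, read 8.74 and 8.76 in WT and 9.16 and 9.27 in atm-1 on day 1, and 10.04 and 9.59 in WT and 10.34 and 10.18 in atm-1 on day 2, a rise of 1.06 (SE 0.09, adjusted p = 2.8e-10). CHLM, a methyltransferase earlier in that pathway, rose by 0.20 (SE 0.07, adjusted p = 0.031), a call held in 10 of 16 alternatives.

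Among 69 genes encoded in the plastid itself, 9 rose and 15 fell, with a median of 0.0067, so the list split rather than moved. The falls were the larger. rps14, a plastid ribosomal protein, read 8.16 and 7.67 in WT and 7.73 and 8.04 in atm-1 on day 1, and 5.73 and 6.49 in WT and 6.90 and 6.91 in atm-1 on day 2, a fall of 1.39 (SE 0.28, adjusted p = 0.00020). petG, of the cytochrome b6f complex, fell by 1.38 (SE 0.22), rpoB, of the plastid RNA polymerase, by 1.14 (SE 0.20), and psbD, of the photosystem II core, by 0.91. The largest rise was 0.48, in psbM. Target cDNA was primed with poly(T), and plastid transcripts mostly lack stable poly(A) tails, so these probe sets read a primed fraction of each transcript.

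In a list put together after the largest falls had been seen, 7 of 10 subunits of nuclear RNA polymerases fell and 0 rose, with a median of -0.66. NRPA1, the largest subunit of RNA polymerase I, which transcribes ribosomal RNA, read 7.32 and 7.17 in WT and 7.24 and 7.16 in atm-1 on day 1. On day 2 it read 5.93 and 5.70 in WT and 5.81 and 5.66 in atm-1, so it fell by 1.44 (SE 0.12, adjusted p = 1.3e-10). NRPA2, its partner in the catalytic core, fell by 1.14 (SE 0.08) and NRPC2, of RNA polymerase III, by 0.94 (SE 0.09). Of 6 subunits listed for RNA polymerase II, which transcribes protein-coding genes, NRPB9B fell by 0.79 (SE 0.10), NRPB12 by 0.75 (SE 0.08) and NRPB7 by 0.43 (SE 0.09). The other 3, NRPB9A, NRPB6A and NRPB6B, had changes between -0.25 and 0.13 that did not pass. NRPC1 of RNA polymerase III fell by 0.56 (SE 0.14).

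A list of 16 organelle RNA processing genes, chosen in the same way, had 6 lower and 0 higher, with a median of -0.17. OTP81, an RNA editing factor of plastids, read 6.31 and 6.41 in WT and 6.59 and 6.67 in atm-1 on day 1, and 4.69 and 5.07 in WT and 5.10 and 5.09 in atm-1 on day 2, a fall of 1.50 (SE 0.12, adjusted p = 2.4e-11). PPR596, a mitochondrial pentatricopeptide repeat protein, fell by 1.36 (SE 0.08). Of 3 chaperonin genes, also listed after their values were seen, 2 fell: Cpn60beta2, given above, and Cpn60beta3 by 0.33 (SE 0.10). Because these 3 lists were picked on the same arrays, their counts are descriptions. The other lists were chosen with earlier results of these data known, so their counts are descriptions as well.

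The histone and replication list held 5 measured genes, all of them histones, of which 0 rose and 3 fell, with a median of -0.37. No MCM or PCNA gene of DNA replication was measured. HTB1, a histone H2B, read 9.31 and 9.20 in WT and 9.34 and 9.26 in atm-1 on day 1, and 8.60 and 8.63 in WT and 8.53 and 8.60 in atm-1 on day 2. It fell by 0.69 (SE 0.10, adjusted p = 1.2e-06), with the genotypes almost superimposed. HTB2 fell by 0.39 (SE 0.11) and HTB4 by 0.37 (SE 0.07). Of 3 Aurora kinases of mitosis, AUR2 fell by 0.43 (SE 0.13) and AUR1 by 0.31 (SE 0.12), calls held in 11 and 9 of 16 alternatives, and AUR3 had a change of -0.012.

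Among 27 expansin and xyloglucan endotransglucosylase (XTH) genes, which loosen and rebuild cell walls, 3 rose and 9 fell, with a median of -0.074. The largest change in the list was upward, in EXPA16. Against it, XTH32 read 9.55 and 9.68 in WT and 9.97 and 9.97 in atm-1 on day 1, and 8.42 and 8.18 in WT and 8.91 and 9.27 in atm-1 on day 2. It was 2.14-fold lower on day 2 (log2 SE 0.09, adjusted p = 8.2e-11). EXPB3 fell by 1.17 (SE 0.18) and EXLA2 by 1.05 (SE 0.10). Of 7 auxin response repressors 2 rose and 0 fell. IAA29, known to rise in shade and warmth, read 5.58 and 5.63 in WT and 5.42 and 5.58 in atm-1 on day 1, and 6.90 and 6.54 in WT and 6.13 and 6.19 in atm-1 on day 2, a rise of 0.89 (SE 0.18, adjusted p = 0.00024). IAA18 rose by 0.41 (SE 0.09).

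Of 3 further flavonoid genes 0 rose and 2 fell, with a median of -0.62. UGT78D1, which adds rhamnose to flavonols, read 8.44 and 8.40 in WT and 8.37 and 8.52 in atm-1 on day 1, and 6.87 and 6.85 in WT and 7.58 and 7.30 in atm-1 on day 2. It fell by 1.28 (SE 0.12, adjusted p = 1.1e-09), with a genotype difference of -0.56 that did not pass its own test (adjusted p = 0.33). UGT78D2, which adds glucose, fell by 0.62 (SE 0.10), and DFR, of the anthocyanin branch, had a change of -0.079. Across 47 genes with a UGT glycosyltransferase name in the annotation used, 2 rose and 10 fell, with a median of -0.041. That is 25.5% called, against 27.5% of all genes. Of 11 tau glutathione transferases, which conjugate toxins and metabolites, 2 rose and 4 fell. GSTU25 fell by 1.34 (SE 0.22) and GSTU18 rose by 0.83 (SE 0.08), so members of this family moved in opposite directions.

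BHLH101, a transcription factor of the iron deficiency response, fell by 1.47 (SE 0.23, adjusted p = 7.2e-06). It read 7.07 and 7.39 in WT and 6.46 and 7.39 in atm-1 on day 1, and 5.12 and 5.05 in WT and 5.65 and 6.58 in atm-1 on day 2, so the days overlapped in atm-1. PYE (POPEYE), a regulator of the same response, had a change of -0.12 (adjusted p = 0.57). AT1G47400, a short iron-deficiency peptide, had a change of -1.50, also with the days overlapping. Of these 3 iron genes 0 rose and 2 fell, with a median of -1.47. In the cold and dehydration list COR15B rose, and LTI30, a dehydrin, fell by 0.47 (SE 0.13), a call lost without replicate 1 of atm-1 day 2. COR15A and COR47 had changes of 0.19 and 0.10 that did not pass. In the heat chaperone list Hsp70-2 fell by 1.17 (SE 0.15) and ATHSP22.0 rose by 0.29 (SE 0.09). BCAT4 and UGT74B1 of glucosinolate synthesis did not pass, and GSTU20 of the same list fell by 0.73 (SE 0.21), a call held in 11 of 16 alternatives.

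Of 19 genes of secretory and endosomal traffic 6 rose and 0 fell, with a median of 0.13. That is 31.6% called, against 27.5% of all genes. AtSec20 rose by 0.66, SEC6 of the exocyst by 0.60, and VPS20.1 and VPS46.2 of the endosomal sorting machinery by 0.55 and 0.51. The ubiquitin pathway list split, with 6 of 33 genes higher and 6 lower (36.4% called). UBC28, a conjugating enzyme, read 9.82 and 9.83 in WT and 10.05 and 10.10 in atm-1 on day 1, and 10.88 and 10.94 in WT and 10.90 and 10.80 in atm-1 on day 2, a rise of 0.93 (SE 0.09). The ubiquitin ligase PUB26 fell by 1.09 and the deubiquitinating enzyme UBP23 by 0.76. Of 11 genes listed for respiration 1 rose and 3 fell. The one that rose, CYTC6A, by 0.81 (SE 0.08), is a cytochrome of chloroplasts, and CYTC-2, a mitochondrial cytochrome c, fell by 0.68 (SE 0.09).

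Other lists gave mixed counts, several with a called share near the 27.5% of all genes. Of 29 carboxypeptidase-like genes 3 rose and 8 fell (37.9% called). Of 20 beta-glucosidases 4 rose and 2 fell (30.0%), and of 14 SWEET sugar transporters 1 rose and 3 fell (28.6%). The calcium sensor list of calmodulin-like and IQD genes had 5 of 22 higher and 1 lower (27.3%). Its calls at CML38, CML23 and CML41 were lost with only the 8 unirradiated arrays in the fit. CML38 and CML23 rose in WT and not in atm-1. The bZIP and bHLH factors had 3 of 22 higher and 3 lower (27.3%). Calls were few among 24 genes with a cytochrome P450 (CYP) name in the annotation used (2 higher). P450 genes without such a name were not counted. Calls were also few among 22 trichome birefringence-like genes (1 higher, 2 lower) and 6 WRKY factors (1 lower). Of 5 beta tubulins 2 rose and 2 fell. None of 5 response regulators and none of 4 stomatal lineage genes was called by limma, against 0 and 1 genes at an unadjusted p under 0.05. STOMAGEN, a peptide that promotes stomata, had the largest change of the stomatal list at 0.20 (adjusted p = 0.12).

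**Figure D2:**
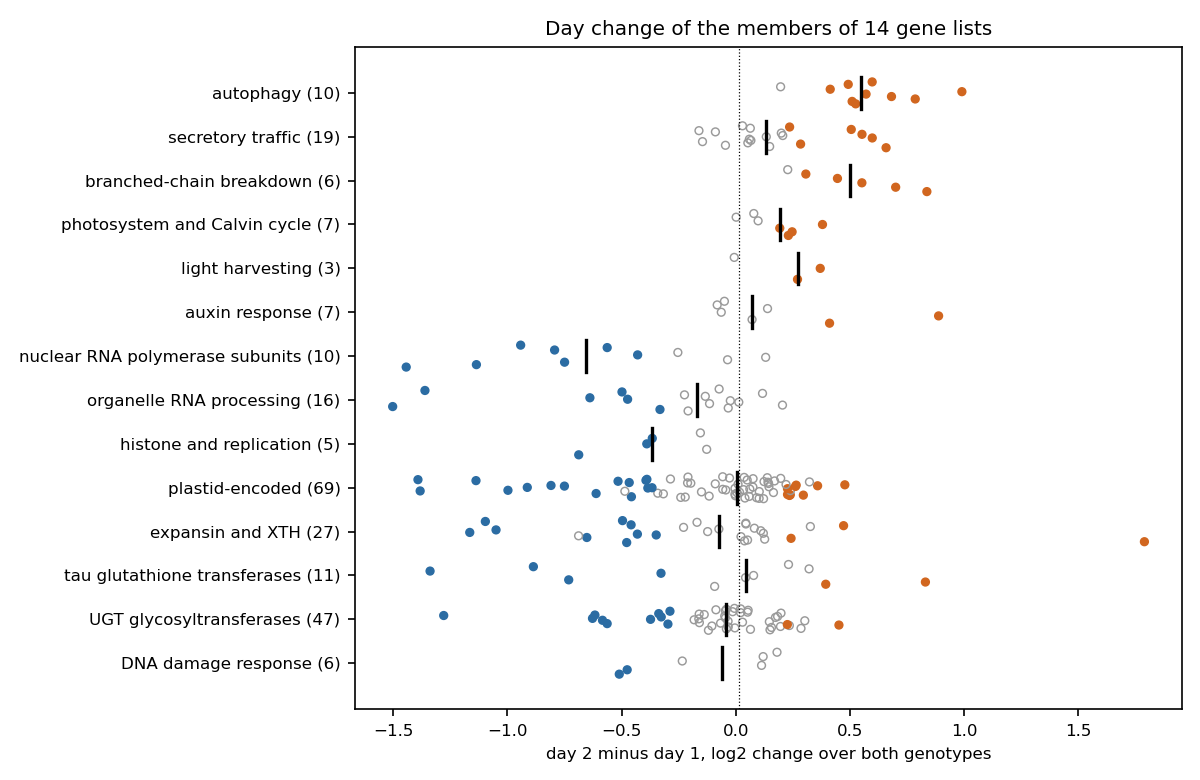
Change from day 1 to day 2 on the log2 scale (horizontal axis) of each member of 14 gene lists, with the number of members in brackets. Filled points are called genes, orange higher and blue lower, open points were not called, black bars are list medians and the dotted line is the median of all genes, 0.016; autophagy sits to the right of that line throughout, while plastid-encoded genes spread to both sides from -1.39 to 0.48.

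The mean level of 3 root genes lay between 7.51 and 8.15 on day 1 arrays and between 7.80 and 8.14 on day 2 arrays, and that of 2 seed reserve genes between 4.10 and 4.42 and between 4.23 and 4.89. Of the root genes PYK10 rose by 0.21 (SE 0.07, adjusted p = 0.033), a call held in 8 of 16 alternatives, and the root hair expansins EXPA7 and EXPA18 had changes of 0.023 and 0.039. The leaf marker RCA is given above. Of the seed reserve genes OLEO3 had a change of 0.061 and ICL, of the glyoxylate cycle, of 0.32 (SE 0.43). The part of tissue proportions in the day change was not tested.

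Of 6 genes listed for their response to DNA damage, 0 rose and 2 fell between the unirradiated days, with a median of -0.060. ATMND1, a recombination gene, fell by 0.48 (SE 0.11), from between 4.05 and 4.22 to between 3.47 and 3.95, all low levels on these arrays. ATLIG4, a DNA ligase, had a change of 0.11 (adjusted p = 0.52).

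The day change was also tested in WT and atm-1 apart. With only the 8 unirradiated arrays in the fit, 2507 genes were called in WT and 2169 in atm-1. In the main fit the spread was pooled over the groups of all arrays, irradiated ones and both genotypes included. On that spread, with 2 arrays a day, WT had 2689 called genes (20.1%) and atm-1 2373 (17.8%). The atm-1 count fell to 1446 without replicate 1 of day 1, to 1525 without replicate 2 of day 1 and to 1578 without replicate 2 of day 2. Over all 13356 genes, 8696 (65.1%) had the same sign of change in both genotypes. Among the 3668 called on the average of the genotypes 3593 did, a count that this choice of genes partly builds in. The difference between the genotypes' day changes was called for 85 genes (0.636%). Signs were opposite in the genotypes for 68 of them, which choosing genes for a large difference partly builds in. Of the 85 called genes, 66 had the higher change in WT and 19 the lower. This count rests on single arrays: it was 25 without replicate 1 of WT day 1, 48 and 55 without replicate 1 or 2 of WT day 2, and 22 and 36 without replicate 1 or 2 of atm-1 day 1. The split rests on them as well: without replicate 2 of atm-1 day 2 it was 42 with the higher and 43 with the lower change in WT, and without replicate 1 of that group 84 and 38. With only the 8 unirradiated arrays in the fit it was 40.

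The widest difference was at AT4G27652, an unnamed gene. It read 4.55 and 4.63 in WT and 5.77 and 6.69 in atm-1 on day 1, and 9.47 and 8.36 in WT and 7.04 and 5.17 in atm-1 on day 2. WT thus changed by 4.33 and atm-1 by -0.12, a difference of 4.45 (SE 0.77, adjusted p = 0.0040). The zinc finger gene STZ (ZAT10), known for fast induction by salt, cold and wounding, read 6.77 and 6.14 in WT and 7.08 and 6.54 in atm-1 on day 1. On day 2 it read 9.68 and 8.63 in WT and 6.78 and 4.86 in atm-1, a difference in change of 3.69 (SE 0.65, adjusted p = 0.0040), a call lost with only the 8 arrays in the fit. Replicates of a day 2 group lay up to 1.92 apart in STZ.

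AT4G27657 changed by 2.79 in WT and -1.33 in atm-1, AT4G29780 by 2.75 and -0.86, and AT4G27280 by 1.89 and -1.51. CML38 and CML23, calmodulin-like calcium sensors picked out after their values were seen, changed by 2.27 and 1.84 in WT and by -0.50 and -0.51 in atm-1, with adjusted p of 0.015 and 0.00067 for the difference. In each of these genes replicate 1 of atm-1 day 2 lay above replicate 2, as it did in STZ. The differences at AT4G27652, AT4G27657 and AT4G27280 were called in all 16 alternatives, that at AT4G29780 in 9.

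In the other direction, AT1G14960 read 5.93 and 6.25 in WT and 4.46 and 4.38 in atm-1 on day 1, and 5.51 and 5.36 in WT and 5.79 and 5.38 in atm-1 on day 2. The genotypes were apart on day 1 and overlapped on day 2, a difference in change of -1.82 (SE 0.32, adjusted p = 0.0044) called in all 16 alternatives. AT1G60590 changed by -2.33 in WT against -0.75 in atm-1. AT1G68570 (NPF3.1), of the nitrate and peptide transporter family, changed by -1.63 in WT against -0.39 in atm-1. AT5G47980 and AT1G66800 had differences of -1.29 and -1.28. The calls at AT1G60590, AT1G68570, AT5G47980 and AT1G66800 were lost without single arrays and held in between 8 and 12 alternatives.

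**Figure D3:**
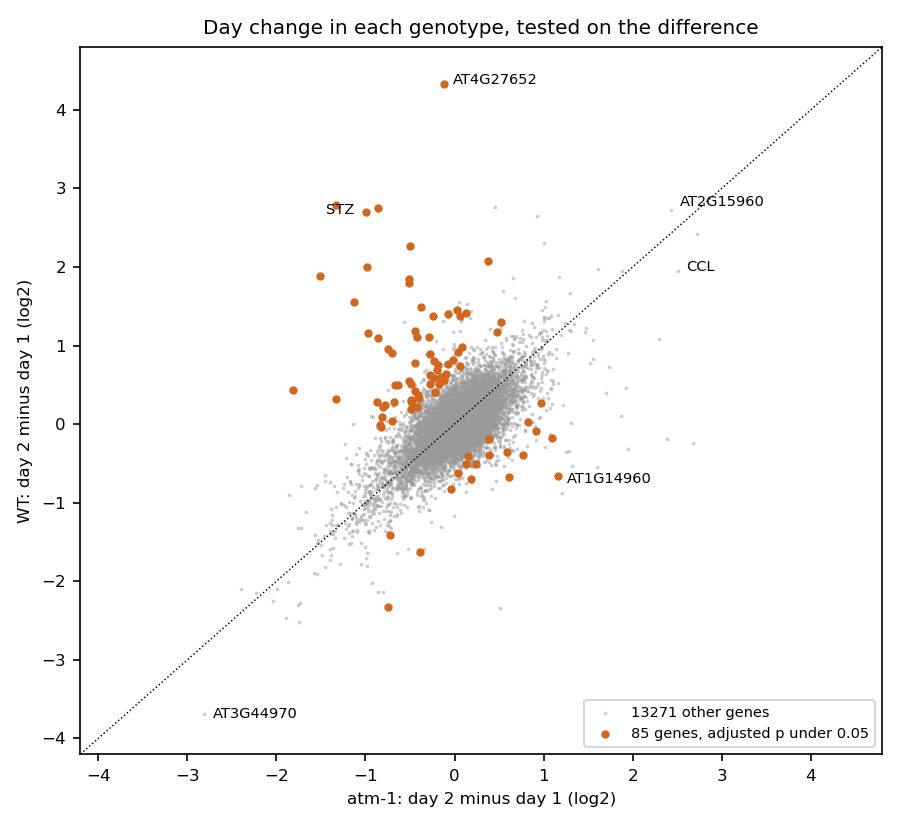
Day change on the log2 scale in atm-1 (horizontal axis) and WT (vertical axis), 1 point per gene, with the dotted line of equal change. Grey points are 13271 genes whose genotype difference was not called and orange points the 85 where it was; AT3G44970, CCL and AT2G15960 lie near the line, while AT4G27652 and STZ lie far above it.

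The study holds 2 further pairs of groups of the same ages that share no array with the controls: 24 h against 1.5 h after gamma (8:40 am on day 2 against 10:10 am on day 1), and 24 h against 1.5 h after HZE (1:09 pm against 2:39 pm). In both pairs, as in the controls, the older seedlings were sampled 1.5 h earlier in the day, and radiation and recovery time differ as well. The gamma pair had 2512 called genes (18.8%), 1105 higher at 24 h (8.27%) and 1407 lower (10.5%). With a replicate block it had 601, of which 304 were higher and 297 lower. The HZE pair had 5159 (38.6%), 2381 higher (17.8%) and 2778 lower (20.8%). With each array centred on its median the HZE split was 1805 higher and 4380 lower, and the median of all genes in that pair moved from -0.018 to -0.13.

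Most genes that changed between the unirradiated days were not called in the gamma pair, and its calls among them went both ways. Of the 1963 genes that rose between the unirradiated days, 235 were higher (12.0%) and 287 lower (14.6%) in it, making up 21.3% of all genes higher there and 20.4% of all lower. Of the 1705 that fell, 196 were higher (11.5%) and 328 lower (19.2%). Against the 8.27% higher and 10.5% lower among all genes, all 4 shares were above the background, in the same and in the opposite direction. Among the 57 genes that rose at least 2-fold 19 were higher (33.3%) and 9 lower (15.8%), and among the 140 that fell at least 2-fold 24 were higher and 25 lower, with a median change of -0.0077 against -1.17 in the controls. The difference between the gamma and the unirradiated change was called for 3225 genes (24.1%), among them 133 of those 140. The members were chosen for a large unirradiated change, so part of that count is built in.

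In the HZE pair more of the day genes moved the opposite way. Of the 1963 that rose 377 were higher (19.2%) and 828 lower (42.2%), and of the 1705 that fell 615 were higher (36.1%) and 380 lower (22.3%). Among the 140 genes that fell at least 2-fold 86 were higher and 16 lower. The difference from the unirradiated change was called for 5092 genes (38.1%), 2358 with the higher change after HZE and 2734 with the lower, or 1896 and 3709 with each array centred on its median.

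No autophagy gene rose in either pair, and 3 fell after gamma and 7 after HZE. All 6 branched-chain genes fell in the HZE pair, with a median of -2.66, while 1 rose and 2 fell in the gamma pair. None of the 10 nuclear RNA polymerase subunits was called by limma in the gamma pair, where 2 had an unadjusted p under 0.05 and the median was -0.034. PORB rose in the gamma pair by 0.95, close to its 1.06 in the controls, and had a change of -0.34 in the HZE pair.

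For the genes that changed at least 2-fold, levels were compared in place of changes. In WT 56 of the 57 genes that rose at least 2-fold were nearer to day 2 than to day 1 in the arrays at 24 h after HZE, and 136 of the 140 that fell. In the WT arrays at 24 h after gamma only 18 of the 57 and 15 of the 140 were nearer to day 2. In atm-1 the counts were 53 and 138 for HZE and 8 and 15 for gamma. The median distance to day 2 of the falling genes was -0.058 in WT after HZE and 1.42 after gamma. These genes were chosen for a large gap between these same control days, so part of these counts is built in. No such count over all genes was made.

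CCL gives the pattern gene by gene. In WT its mean was 7.48 on unirradiated day 1 (10:45 am), 5.59 at 1.5 h after gamma (10:10 am), 7.51 at 11:40 am, 10.97 at 2:55 pm and 12.36 at 8:40 pm. On day 2 it was 5.77 after gamma at 8:40 am, 9.43 in the controls at 9:15 am and 9.82 after HZE at 1:09 pm. The controls labelled 35 minutes after the gamma arrays thus lay 3.67 above them and 0.39 below the HZE arrays. AT3G62550 in WT followed the same order, with 4.98 after gamma, 7.86 in the controls and 8.71 after HZE on day 2. ATG8F read 8.57, 10.44 and 10.51 in these 3 WT groups, CHIL 8.74, 6.43 and 6.05, and NRPA1 7.67, 5.82 and 5.97. For all 5 genes the day 2 controls were nearer to the HZE than to the gamma arrays, and the same order of distances held in atm-1. The 5 were named with earlier results of these data known.

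GI, the clock component, lay nearer to the HZE arrays as well. Its WT mean on day 2 was 6.91 in the controls, 8.03 at 24 h after gamma and 7.25 at 24 h after HZE. On day 1 it was 6.80 in the controls at 10:45 am against 7.99 after gamma at 10:10 am and 7.02 at 11:40 am, and it reached 9.69 at 8:40 pm. In WT the controls of both days lay below every other group in GI except HZE at 1:09 am.

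**Figure D4:**
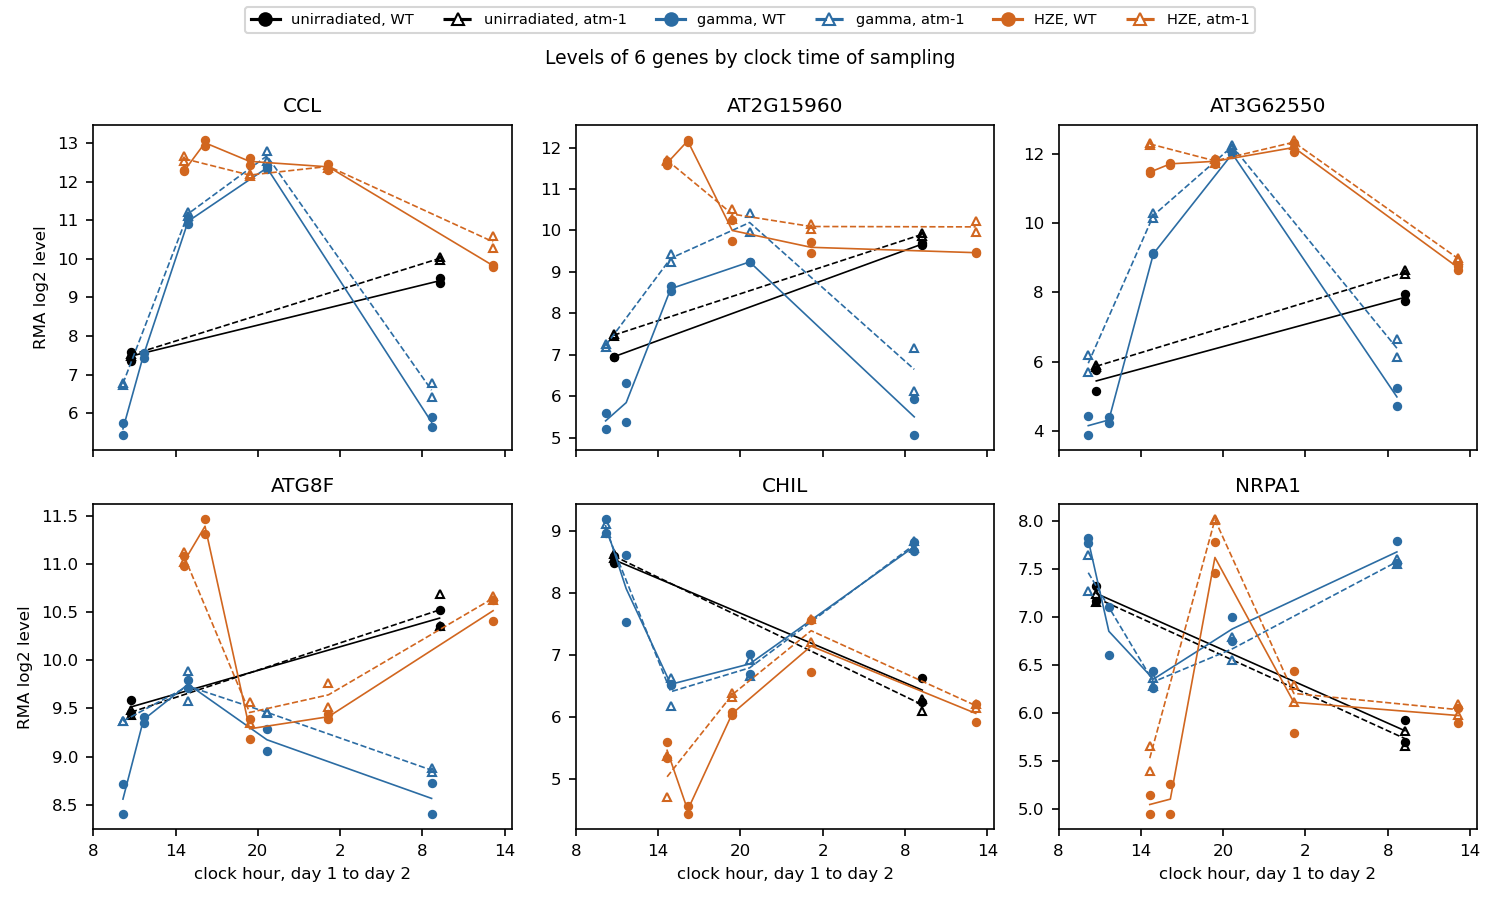
RMA log2 levels of 6 genes (vertical axes) by clock hour from the morning of day 1 to the afternoon of day 2: black unirradiated, blue gamma, orange HZE, filled circles and solid lines WT, open triangles and dashed lines atm-1, points single arrays and lines joining group means. In CCL, AT2G15960 and AT3G62550 the unirradiated day 2 points lie above the gamma arrays of that morning and near the HZE arrays of that afternoon; CHIL and NRPA1 show the reverse direction.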

How the data were processed

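RNA was labelled for Affymetrix arrays, 1 per sample, after cDNA synthesis primed with poly(T), per the labels' protocols. The deposited values are RMA log2 values, made by the authors with GCOS 1.2, RMA and affy, per the submitters' processing notes. Of 22810 probe sets, 64 controls were left out. Of the rest 13513 carried 1 gene, 503 several and 8730 none. For the 13356 genes tested, the brightest probe set was used for 146 genes with several. Symbols came from the TAIR10.1 gene table (13436 probe sets matched, 77 not). Gene families were matched by these symbols, so members listed there without a family name were not counted. Sequences were not used here, and a planned promoter search was not run.

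limma 3.58.1 in R 4.3.3 was fitted to the 22 group means of all 44 arrays, with contrasts for the day change over both genotypes, in each genotype, their difference, and the gamma and HZE pairs. The fit was checked on simulated data.

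Named genes were, by rule, the 15 highest and 15 lowest called genes without overlap between days, up to 4 of the largest per list and further members needed to account for a count, 5 genotype differences a side, and CCL, GI, AKINBETA1, AT2G15960, AT1G73600, AT3G62550 and STOMAGEN. Genes and lists were chosen with earlier results of these data known. One gene family among the lists is not reported here. Array number limits precision. Alternatives were another variance prior, scaling, dim-gene filter, probe set choice, fold, array set or replicate block, and leaving out arrays. Same-numbered replicates did not deviate together (correlations of -0.12 to 0.18), so numbers were not used as pairs.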

Additional observations from a re-analysis of the deposited data

Results flagged for a closer look

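The genotypes differed in their day change, by limma's test of that difference, at the 10 genes named above for it. The change in WT exceeded that in atm-1 by 4.45 at AT4G27652, 4.12 at AT4G27657, 3.69 at STZ, 3.61 at AT4G29780 and 3.40 at AT4G27280. It was lower in WT, with differences of -1.82 at AT1G14960, -1.58 at AT1G60590, -1.29 at AT5G47980, -1.28 at AT1G66800 and -1.24 at AT1G68570. On day 2 the replicates of atm-1 lay 1.92 apart at STZ, 1.87 at AT4G27652 and 1.36 at AT4G29780, and those of WT 1.05, 1.11 and 1.47 apart. The part of single plates or of handling in these differences was not tested.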

How the results depend on the processing

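The day change kept its direction at every named gene called in it, under each alternative run, and between 2763 and 3764 genes were called except where features or fold were changed. With all probe sets as features the counts were 7057 for the day change, 180 for the genotype difference, 5254 in WT, 4663 in atm-1, 4963 and 9875 for the gamma and HZE pairs, and 6336 and 9590 for their differences from the day change. More features were tested there. At 2-fold or more they were 197, 42, 279, 214, 137, 752, 413 and 1318. With a replicate block, on numbers that do not pair samples, 2763 genes were called for the day change, 51 for the genotype difference and 601 for the gamma pair. With only the 8 arrays in the fit the day change had 3097 and the genotype difference 40. Leaving out 1 array gave 3126 to 3272 calls for the day change, 22 to 122 for the genotype difference, 1820 to 2734 in WT and 1446 to 2376 in atm-1. The cause of these shifts was not tested. For single genes, calls of the day change matched the reported call in 3342 cases, were lost in 133 and gained in 22, and those of the genotype difference matched in 127 and were lost in 32. With 2 arrays per genotype and day, small changes near background are the least certain.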
